A study of Mus musculus with 9 samples.

Results

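The 39 genes described here encode the enzymes that make cholesterol and fatty acids, and the proteins that set their level through the sterol regulatory element-binding proteins (SREBPs). They were taken by symbol from a count table of 53342 genes and all 39 were found. Of these, 20 form the sterol arm (8 from acetyl-CoA to the isoprenoid precursors and 12 from squalene synthesis to cholesterol), 14 form the fatty acid arm (7 for acetyl-CoA and NADPH supply and chain synthesis, 7 for desaturation and elongation) and 5 are SREBP regulators. They were measured by RNA sequencing in bone-marrow-derived macrophages from male and female wild-type (WT) C57BL/6J mice aged 8 to 12 weeks. The cells received Torin-2, rapamycin or vehicle for 2 h, and a spinal cord homogenate was then added for 24 h at 1% weight per volume. Each of the 3 treatments had 3 libraries, labelled as biological replicates, and all 9 libraries had the homogenate, so no group shows macrophages without it. The homogenate came from pooled cords of C57BL/6 mice aged 8 to 20 weeks with the meninges removed. The sources used here give no dose for Torin-2 or rapamycin, so differences between the compounds are differences at doses that may not match.

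SREBPs are transcription factors held in the endoplasmic reticulum membrane by the sterol sensor Scap and the anchoring Insig proteins. When membrane sterol is low, Scap carries them to the Golgi, where proteases release the part that enters the nucleus, and SREBP2 mainly drives sterol genes while SREBP1 mainly drives fatty acid genes. Macrophages that take up cholesterol-rich debris such as myelin become foam cells, in which surplus sterol normally keeps this pathway low. The kinase complex mTORC1 is a known activator of SREBP. Rapamycin inhibits mTORC1 through an accessory protein and only in part, whereas Torin-2 blocks the ATP site of mTOR and so inhibits mTORC1 and mTORC2. According to the study's design text, rapamycin served as the control for mTORC1 inhibition because it left lipid accumulation unaffected while Torin-2 lowered it.

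Windows of 250 bases before to 50 bases after each RefSeq start site (GRCm38.p6) were matched for 33 of the 39 genes, and 5 are shown to place the regulatory letters beside the values that follow. No window was matched for Sqle, Fdft1, Fdps, Scd1, Scd2 and Fads1, so the motif counts leave these genes out. Hsd17b7 and Elovl6 fell most in their arms, Hmgcs1 was the only gene of the 33 with the sterol regulatory element core searched for, and Srebf2 and Elovl5 were among the genes that rose. The stretches run 5′ to 3′ on the gene's strand and end before the start given by RefSeq or by GENCODE M21, whichever lies further upstream. They are chr1:169969242-169969455 (minus strand) for Hsd17b7, chr3:129532136-129532354 (plus strand) for Elovl6, chr13:119690101-119690350 (plus strand) for Hmgcs1, chr15:82147019-82147180 (plus strand) for Srebf2 and chr9:77917115-77917363 (plus strand) for Elovl5. Capitals mark the NF-Y box CCAAT (read ATTGG on the other strand), the E-box CACGTG and the sterol regulatory element core TCACNCCAC.
Hsd17b7: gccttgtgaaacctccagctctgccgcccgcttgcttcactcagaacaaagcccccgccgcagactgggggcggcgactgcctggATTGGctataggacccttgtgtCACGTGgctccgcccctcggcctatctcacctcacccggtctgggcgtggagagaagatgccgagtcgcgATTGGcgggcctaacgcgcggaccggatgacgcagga
Elovl6: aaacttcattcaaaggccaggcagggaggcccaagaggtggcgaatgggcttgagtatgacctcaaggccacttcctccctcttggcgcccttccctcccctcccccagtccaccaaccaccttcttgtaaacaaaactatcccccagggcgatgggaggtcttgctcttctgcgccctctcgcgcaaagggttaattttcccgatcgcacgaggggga
Hmgcs1: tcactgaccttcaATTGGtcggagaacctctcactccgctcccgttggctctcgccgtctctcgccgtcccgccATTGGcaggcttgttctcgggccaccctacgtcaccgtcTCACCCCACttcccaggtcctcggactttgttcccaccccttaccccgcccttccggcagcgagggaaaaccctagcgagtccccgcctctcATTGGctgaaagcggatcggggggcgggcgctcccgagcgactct
Srebf2: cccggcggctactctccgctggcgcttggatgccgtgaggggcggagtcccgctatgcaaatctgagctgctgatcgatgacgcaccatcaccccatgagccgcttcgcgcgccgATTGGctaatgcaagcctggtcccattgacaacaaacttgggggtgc
Elovl5: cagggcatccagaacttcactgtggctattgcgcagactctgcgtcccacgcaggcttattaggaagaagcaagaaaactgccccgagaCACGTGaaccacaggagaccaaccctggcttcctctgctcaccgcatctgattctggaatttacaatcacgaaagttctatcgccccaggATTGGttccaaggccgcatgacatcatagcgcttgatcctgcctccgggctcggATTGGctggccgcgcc

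Each motif was searched on both strands of the whole 300-base windows, and matches were allowed to share bases. The NF-Y box, whose factor is a known partner of SREBP on target promoters, was present in 28 of 33 genes (84.8%), against 43.0% of the 9283 tested genes with a window and 41.1% of all 27025 genes in the table. It was present in 16 of 17 sterol arm genes (94.1%), 8 of 11 fatty acid arm genes (72.7%) and 4 of 5 regulators. Elovl6, the gene that fell most with Torin-2, was among the 5 without it, and no letters are capitalised in its stretch. The E-box was present in 7 of 33 genes (21.2%), against 12.1% of tested genes and 8.09% of all genes. The sterol regulatory element core was present in Hmgcs1 alone (3.03%), 137 bases before the start, against 1.43% of tested genes and 1.44% of all genes. These are counts of letters in 1 window per start site and show neither binding nor its absence.

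Library totals ran from 16116666 to 24044329 counts, and a level in CPM is a gene's count relative to its library total after TMM scaling. All 10 macrophage markers were detected in every group, with summed levels of 15342 to 17123 CPM in Torin-2 libraries, 19957 to 21599 CPM in rapamycin libraries and 12054 to 16692 CPM in vehicle libraries. Lyz2 alone averaged 11711.5 CPM with Torin-2, 14931.1 CPM with rapamycin and 9751.6 CPM with vehicle, so these sums mostly follow Lyz2. Marker RNA of cell types in the homogenate was also present. The 11 oligodendrocyte markers, a cell type with high sterol synthesis, summed to 368 to 425 CPM in Torin-2 libraries, 694 to 850 CPM in rapamycin libraries and 482 to 616 CPM in vehicle libraries. None was at 0 in all libraries of a group, but Mog, Cldn11, Opalin and Ugt8a were too low to test. Mbp alone averaged 327 CPM with Torin-2, 613 CPM with rapamycin and 418 CPM with vehicle, so the sums mostly follow this gene. Cnp was highest with vehicle instead, averaging 18.4, 23.0 and 33.6 CPM in the same order. In bulk RNA, fewer cultured cells of a type and less RNA per cell cannot be told apart. For markers of the homogenate's cell types, homogenate RNA left in a library and expression by the cultured cells cannot be told apart either. Replicate 3 of every group stood apart from replicates 1 and 2 on the third principal component, which held 7.56% of the variance, and calls that changed without it are named below.

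Torin-2 lowered most of the pathway: 37 of the 39 genes had enough counts to be tested, and against vehicle 25 fell, 6 rose and 6 did not pass an edgeR adjusted p of 0.05. Rapamycin against vehicle gave 21 that fell, 8 that rose and 8 that did not pass. The compounds changed much of the transcriptome, so these counts need their background: of 12511 genes tested, Torin-2 lowered 32.9% and raised 32.5%, and rapamycin lowered 26.2% and raised 24.6%. Scaled by library totals alone, the split for rapamycin was 2421 higher and 4046 lower, against 3078 and 3273 with TMM factors. The median log2 fold change over the 37 genes was -0.54 with Torin-2 and -0.32 with rapamycin, beside -0.0078 and 0.0011 over all genes tested. The treated and vehicle libraries did not overlap for 31 of the 37 genes with Torin-2 and for 31 with rapamycin, against 70.2% and 57.5% of all genes tested. Both comparisons use the same 3 vehicle libraries, so what they share is not independent.

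**Figure D1:**
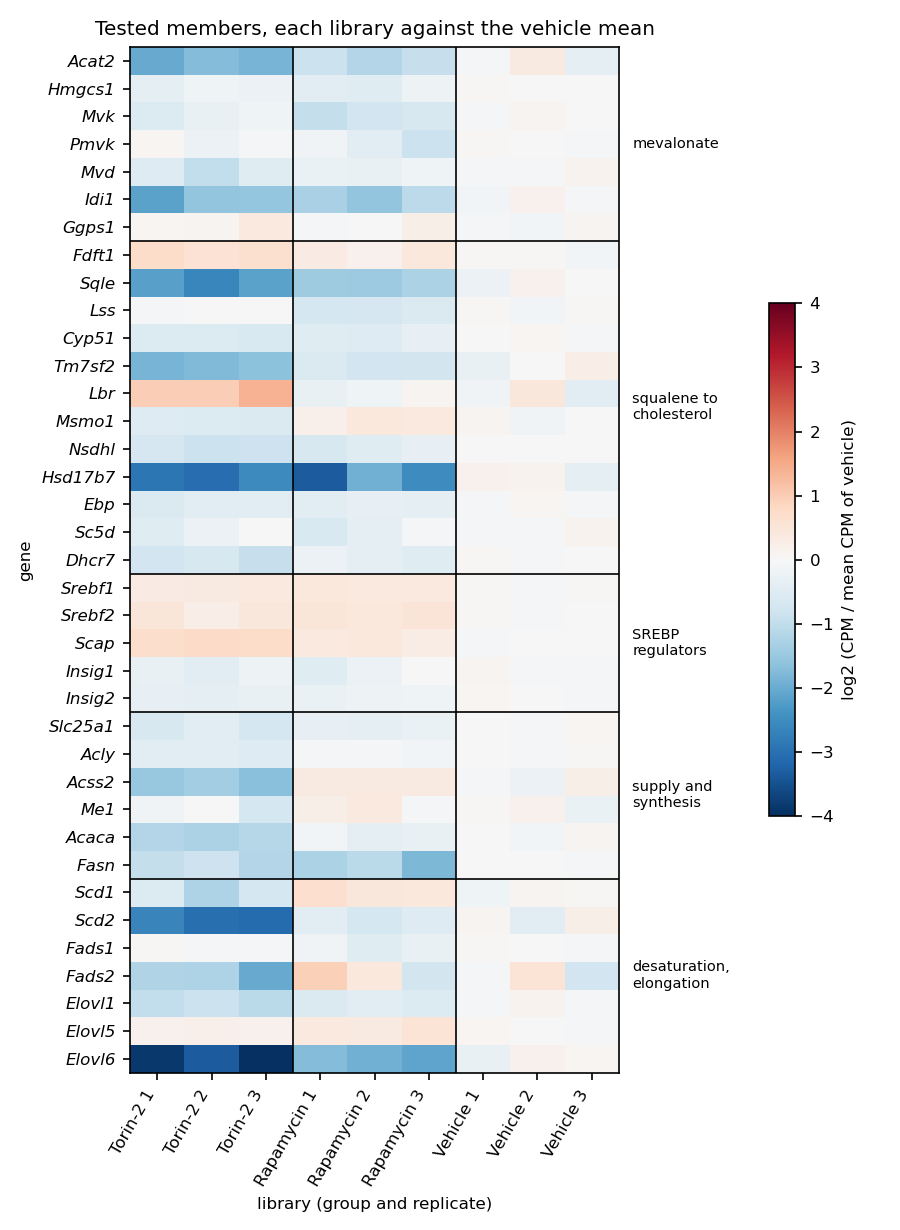
Log2 ratio of CPM in each library to the mean CPM of the vehicle libraries for the 37 tested genes, in rows by role, with blue for lower and red for higher. The Torin-2 columns are blue over most of both arms, Elovl6, Scd2, Hsd17b7 and Sqle being the darkest, while the rows of Srebf1, Srebf2 and Scap are pale red in Torin-2 and rapamycin columns.

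Most steps from acetyl-CoA to the isoprenoid precursors fell with both compounds. Of 7 tested genes, 5 fell and 0 rose in each comparison with vehicle, with medians of -0.33 for Torin-2 and -0.47 for rapamycin. Of all genes tested, 32.9% fell with Torin-2 and 26.2% with rapamycin. Acat2, the cytosolic thiolase that opens the pathway, stood at 1.18, 1.43 and 1.32 CPM in the Torin-2 libraries, 2.64, 2.13 and 2.51 CPM in the rapamycin libraries and 4.54, 6.07 and 3.71 CPM in the vehicle libraries. Torin-2 libraries were lowest, rapamycin libraries between and vehicle libraries highest, without overlap, and the log2 fold change was -1.86 (SE 0.23, edgeR adjusted p = 1.90e-05) for Torin-2 and -0.98 (SE 0.22, edgeR adjusted p = 0.00285) for rapamycin. Idi1, the isopentenyl diphosphate isomerase, had 0.963, 1.43 and 1.44 CPM in the Torin-2 libraries, 1.74, 1.42 and 2.06 CPM in the rapamycin libraries and 3.896, 4.76 and 4.09 CPM in the vehicle libraries. Every treated library lay below every vehicle library, at -1.72 (SE 0.23, edgeR adjusted p = 3.65e-05) for Torin-2 and -1.29 (SE 0.23, edgeR adjusted p = 5.75e-04) for rapamycin, while the compounds overlapped each other. Acat2 shares 28.9% of its 100-base windows with other genes, mainly Acat3, and Idi1 shares 21.9%, mainly with Gm13502, so reads of these copies may be split between them.

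The middle steps moved less, and the compounds differed in order. Hmgcs1, the HMG-CoA synthase, had 41.5, 48.5 and 46.2 CPM in the Torin-2 libraries, 39.9, 38.5 and 47.4 CPM in the rapamycin libraries and 55.9, 54.02 and 53.3 CPM in the vehicle libraries. Vehicle libraries were highest and the compounds overlapped each other, at -0.26 (SE 0.084, edgeR adjusted p = 0.0163) for Torin-2 and -0.38 (SE 0.085, edgeR adjusted p = 0.00306) for rapamycin. Without Torin-2 replicate 1 or vehicle replicate 1 the Torin-2 call was lost (adjusted p = 0.0812 and 0.0557, over a range of 0.00435 to 0.0812 in all settings). Mevalonate kinase, Mvk, had 7.86, 9.2999 and 10.1 CPM in the Torin-2 libraries, 5.92, 6.68 and 7.27 CPM in the rapamycin libraries and 10.8, 12.3 and 11.3 CPM in the vehicle libraries. Here rapamycin libraries were lowest and the groups did not overlap, with -0.33 (SE 0.12, edgeR adjusted p = 0.0319) for Torin-2 and -0.78 (SE 0.13, edgeR adjusted p = 3.13e-04) for rapamycin. The Torin-2 call of Mvk was lost without Torin-2 replicate 1, Torin-2 replicate 2 or vehicle replicate 2 (adjusted p = 0.133, 0.0527 and 0.0972), by DESeq2 (0.0533) and with no filter on low counts (0.0694), over a range of 0.0141 to 0.133.

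The next kinase, Pmvk, had 9.305, 7.49 and 8.51 CPM in the Torin-2 libraries, 7.98, 6.49 and 4.91 CPM in the rapamycin libraries and 9.21, 8.78 and 8.67 CPM in the vehicle libraries. Torin-2 and vehicle libraries overlapped (-0.075 (SE 0.16, edgeR adjusted p = 0.687)), whereas every rapamycin library lay below them except the first, which lay within the Torin-2 range. Rapamycin against vehicle was -0.47 (SE 0.16, edgeR adjusted p = 0.0285), a call lost without rapamycin replicate 2 or 3 or vehicle replicate 1 or 2, with adjusted p-values of 0.0503 to 0.102. It was also lost in the fit of rapamycin and vehicle alone (0.0632) and without replicate 3 of every group (0.127), over a range of 0.00705 to 0.127. Mvd, the decarboxylase that yields isopentenyl diphosphate, had 9.36, 6.75 and 9.699 CPM in the Torin-2 libraries, 11.1, 10.99 and 12.03 CPM in the rapamycin libraries and 12.7, 12.96 and 14.7 CPM in the vehicle libraries. Torin-2 libraries were lowest, at -0.64 (SE 0.13, edgeR adjusted p = 0.00117), and the rapamycin libraries lay just below vehicle without passing, at -0.24 (SE 0.13, edgeR adjusted p = 0.1502). Scaled by library totals, Mvd also passed for rapamycin (adjusted p = 0.0479, range 0.0479 to 0.353).

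Ggps1, the geranylgeranyl diphosphate synthase at the branch to protein prenylation, ranged from 30.8 to 38.6 CPM with Torin-2, 27.7 to 34.3 CPM with rapamycin and 27.4 to 31.9 CPM with vehicle. The groups overlapped, and neither 0.20 for Torin-2 (95% interval -0.032 to 0.44) nor 0.056 for rapamycin (-0.18 to 0.29) passed. With the replicate number as a block, Torin-2 against vehicle passed (adjusted p = 0.0142, range 0.0142 to 0.468). Fdps, the farnesyl diphosphate synthase, could not be tested. It had 1, 1 and 1 counts in Torin-2 libraries, 4, 5 and 1 counts in rapamycin libraries and 6, 4 and 0 counts in vehicle libraries. In GENCODE M21, 21.4% of its windows are shared, mainly with Gm43738, which lies on the same strand and shares 1124 exon bases, and the part of this in the low counts was not tested.

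From squalene to cholesterol, 8 of 12 genes fell, 2 rose and 2 did not pass in each comparison with vehicle, with medians of -0.56 for Torin-2 and -0.41 for rapamycin. Of all genes tested, 32.9% fell and 32.5% rose with Torin-2, and 26.2% fell and 24.6% rose with rapamycin. The deepest falls were at squalene epoxidation and keto-sterol reduction. Hsd17b7 (ENSMUSG00000026675, chromosome 1 from 169949535 to 169969241, minus strand), the keto-sterol reductase whose stretch with a pair of ATTGG boxes and a CACGTG box is printed above, had 1.12, 1.01 and 1.44 CPM in the Torin-2 libraries, 0.837, 2.18 and 1.45 CPM in the rapamycin libraries and 9.38, 9.12 and 6.45 CPM in the vehicle libraries. Treated and vehicle libraries were far apart and the compounds overlapped, with -2.79 (SE 0.29, edgeR adjusted p = 4.02e-06) for Torin-2, which is 6.89-fold lower, and -2.44 (SE 0.28, edgeR adjusted p = 2.74e-05) for rapamycin, which is 5.44-fold lower. Sqle (ENSMUSG00000022351, chromosome 15 from 59315077 to 59331192, plus strand), the squalene epoxidase and a rate-controlling step, had 5.13, 3.77 and 5.26 CPM in the Torin-2 libraries, 8.69, 8.48 and 9.62 CPM in the rapamycin libraries and 19.8, 26.3 and 23.5 CPM in the vehicle libraries. The 3 groups did not overlap, and Sqle fell by 2.29 on the log2 scale with Torin-2 (SE 0.14, edgeR adjusted p = 6.51e-08) and by 1.37 with rapamycin (SE 0.14, edgeR adjusted p = 9.52e-06).

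Tm7sf2 and Lbr encode reductases for the same sterol step, and they moved in opposite directions with Torin-2. Tm7sf2 had 2.41, 2.604 and 2.84 CPM in the Torin-2 libraries, 5.86, 5.16 and 5.26 CPM in the rapamycin libraries and 7.15, 8.74 and 10.5 CPM in the vehicle libraries. All groups were apart, at -1.74 (SE 0.17, edgeR adjusted p = 2.18e-06) for Torin-2 and -0.70 (SE 0.16, edgeR adjusted p = 0.00295) for rapamycin. Lbr (ENSMUSG00000004880, chromosome 1 from 181815335 to 181843046, minus strand), which is also the lamin B receptor of the inner nuclear membrane, had 17.2, 17.3 and 22.8 CPM in the Torin-2 libraries, 7.08, 7.81 and 9.52 CPM in the rapamycin libraries and 8.01, 11.8 and 6.35 CPM in the vehicle libraries. Torin-2 libraries lay above all others, at 1.13 (SE 0.20, edgeR adjusted p = 3.55e-04), and rapamycin libraries lay within the vehicle range, at -0.095 (SE 0.21, edgeR adjusted p = 0.736). Tm7sf2 shares 532 exon bases with Vps51 on the same strand, whose own log2 fold change with Torin-2 was 0.46, and reads there cannot be told apart.

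Squalene synthase, Fdft1, and the monooxygenase Msmo1 gave the other rises. Fdft1 had 22.99, 20.7 and 21.3 CPM in the Torin-2 libraries, 17.3, 15.7 and 18.3 CPM in the rapamycin libraries and 14.3, 14.2 and 12.9 CPM in the vehicle libraries. The groups were in the order Torin-2, rapamycin, vehicle without overlap, at 0.65 (SE 0.089, edgeR adjusted p = 4.35e-05) and 0.31 (SE 0.091, edgeR adjusted p = 0.0135) over vehicle. The rapamycin call was lost without rapamycin replicate 3 (adjusted p = 0.0534), without replicate 3 of every group (0.147) and by library totals (0.0794), over a range of 0.00913 to 0.147. Fdft1 shares 774 exon bases with the opposite-strand lysosomal protease Ctsb, which averaged 11380 CPM with Torin-2, 19516 CPM with rapamycin and 19153 CPM with vehicle. Strand was not known for the counting. Ctsb changed by -0.75 with Torin-2, and the part of the shared bases in the Fdft1 counts was not tested.

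Msmo1, which oxidises the methyl groups of lanosterol products, had 25.8, 25.4 and 24.6 CPM in the Torin-2 libraries, 42.8, 48.9 and 48.8 CPM in the rapamycin libraries and 39.5, 33.6 and 37.3 CPM in the vehicle libraries. Torin-2 libraries were below vehicle and rapamycin libraries above, without overlap, at -0.54 (SE 0.080, edgeR adjusted p = 7.50e-05) and 0.35 (SE 0.078, edgeR adjusted p = 0.00285). Lanosterol synthase, Lss, had 18.3, 19.3 and 19.6 CPM in the Torin-2 libraries, 11.8, 12.1 and 12.9 CPM in the rapamycin libraries and 20.1, 17.8 and 20.1 CPM in the vehicle libraries. Only the rapamycin libraries were low, at -0.65 (SE 0.086, edgeR adjusted p = 7.16e-05), and Torin-2 gave -0.019 with a 95% interval of -0.20 to 0.16.

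Cyp51, Nsdhl, Ebp and Dhcr7 fell with both compounds. Lanosterol demethylase, Cyp51, had 16.6, 16.7 and 15.8 CPM in the Torin-2 libraries, 17.4, 17.05 and 19.5 CPM in the rapamycin libraries and 24.2, 25.7 and 22.96 CPM in the vehicle libraries. Nsdhl, the sterol decarboxylating dehydrogenase, had 10.4, 9.19 and 9.49 CPM in the Torin-2 libraries, 10.7, 11.9 and 13.5 CPM in the rapamycin libraries and 16.6, 17.1 and 16.6 CPM in the vehicle libraries. Both genes were highest in vehicle without overlap, Cyp51 at -0.57 (SE 0.083, edgeR adjusted p = 6.83e-05) and -0.43 (SE 0.083, edgeR adjusted p = 0.00102) and Nsdhl at -0.79 (SE 0.10, edgeR adjusted p = 2.76e-05) and -0.48 (SE 0.10, edgeR adjusted p = 0.002095) for Torin-2 and rapamycin. Ebp, the sterol isomerase, had 29.8, 32.4 and 32.3 CPM in the Torin-2 libraries, 32.6, 35.8 and 34.5 CPM in the rapamycin libraries and 43.5, 46.9 and 43.4 CPM in the vehicle libraries. Dhcr7, the reductase that yields cholesterol, had 34.1, 37.6 and 30.4 CPM in the Torin-2 libraries, 49.4, 44.9 and 41.6 CPM in the rapamycin libraries and 60.3, 56.5 and 57.2 CPM in the vehicle libraries. These also fell without overlap with vehicle, Ebp by 0.50 and 0.38 and Dhcr7 by 0.77 and 0.36 on the log2 scale for Torin-2 and rapamycin. Sc5d, the lathosterol oxidase, ranged from 18.6 to 25.6 CPM with Torin-2, 16.9 to 24.8 CPM with rapamycin and 24.3 to 28.5 CPM with vehicle, and the groups overlapped. Its changes of -0.22 (SE 0.14, edgeR adjusted p = 0.192) and -0.32 (SE 0.15, edgeR adjusted p = 0.0867) passed with the replicate block (adjusted p = 0.0168 over a range of 0.0168 to 0.5295, and 0.00311 over a range of 0.00311 to 0.289), and for rapamycin also without rapamycin replicate 3 (0.0168), without replicate 3 of every group (0.0141), by library totals (0.02598) and with no filter (0.0125).

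**Figure D2:**
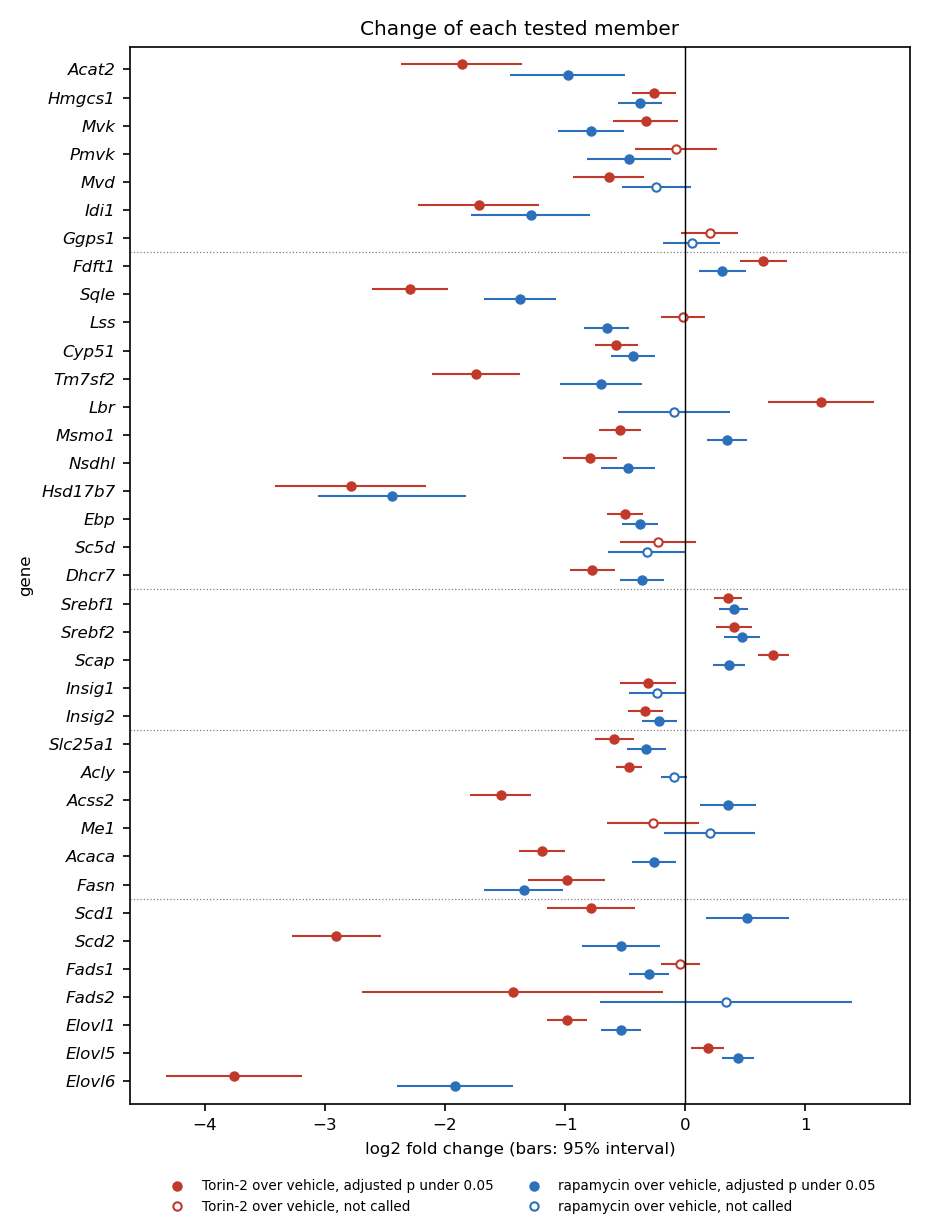
Log2 fold change over vehicle with its 95% interval for each tested gene, Torin-2 in red above rapamycin in blue, with filled points for an edgeR adjusted p under 0.05 and dotted lines between role groups. Most points lie left of 0, and Msmo1, Acss2 and Scd1 have a filled red point on the left and a filled blue point on the right.

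Both SREBP genes and Scap rose while most of the enzyme genes fell. With Torin-2, 3 of 5 rose and 2 fell, and with rapamycin 3 rose and 1 fell. Of all genes tested, 32.5% rose and 32.9% fell with Torin-2, and 24.6% rose and 26.2% fell with rapamycin. A list of 5 genes is short for such a comparison. Srebf2, the sterol arm's transcription factor, had 67.9, 58.2 and 66.5 CPM in the Torin-2 libraries, 68.3, 64.3 and 69.6 CPM in the rapamycin libraries and 49.97, 46.3 and 49.1 CPM in the vehicle libraries. Srebf1, its counterpart for the fatty acid arm, had 69.3, 70.2 and 72.5 CPM in the Torin-2 libraries, 74.02, 72.2 and 72.6 CPM in the rapamycin libraries and 56.5, 52.2 and 56.7 CPM in the vehicle libraries. All treated libraries lay above all vehicle libraries for both genes, Srebf2 at 0.41 (SE 0.069, edgeR adjusted p = 2.46e-04) and 0.48 (SE 0.069, edgeR adjusted p = 1.49e-04) and Srebf1 at 0.36 (SE 0.054, edgeR adjusted p = 9.32e-05) and 0.40 (SE 0.054, edgeR adjusted p = 8.11e-05) for Torin-2 and rapamycin. Scap, the sterol-sensing escort, had 56.1, 58.03 and 57.5 CPM in the Torin-2 libraries, 44.7, 46.5 and 42.01 CPM in the rapamycin libraries and 33.5, 34.7 and 35.1 CPM in the vehicle libraries. It was highest with Torin-2 and intermediate with rapamycin, without overlap, at 0.73 (SE 0.059, edgeR adjusted p = 4.99e-07) and 0.37 (SE 0.060, edgeR adjusted p = 3.41e-04).

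The genes of the anchoring proteins were lower with Torin-2. Insig1, itself a known SREBP target, had 24.9, 22.9 and 26.6 CPM in the Torin-2 libraries, 22.1, 26.1 and 30.2 CPM in the rapamycin libraries and 32.9, 29.5 and 29.8 CPM in the vehicle libraries. Torin-2 libraries lay below vehicle, at -0.31 (SE 0.11, edgeR adjusted p = 0.0243), and rapamycin libraries overlapped vehicle through replicate 3, at -0.23 (SE 0.11, edgeR adjusted p = 0.0947). The Torin-2 call was lost without Torin-2 replicate 1 or 2 or vehicle replicate 1 (adjusted p = 0.0588, 0.0836 and 0.0927, range 0.00743 to 0.0927), which leaves 1 regulator that fell. Without rapamycin replicate 3 the rapamycin change passed (adjusted p = 0.0157), as it did without replicate 3 of every group (0.0134) and by library totals (0.0225), over a range of 0.0134 to 0.33004, which gives 2. Insig2, the other anchor, had 28.5, 27.8 and 29.3 CPM in the Torin-2 libraries, 29.9, 31.1 and 31.9 CPM in the rapamycin libraries and 37.7, 36.4 and 33.7 CPM in the vehicle libraries. Vehicle libraries were highest without overlap, at -0.33 (SE 0.067, edgeR adjusted p = 9.52e-04) for Torin-2 and -0.21 (SE 0.067, edgeR adjusted p = 0.0196) for rapamycin. The rapamycin call was lost without rapamycin replicate 1, vehicle replicate 1 or vehicle replicate 2 (adjusted p = 0.06802, 0.0878 and 0.0547), with no filter (0.0862) and in the fit of rapamycin and vehicle alone (0.0531), over a range of 0.003299 to 0.0878, which leaves 0.

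In the fatty acid arm, Torin-2 lowered 10 of 13 tested genes and raised 1, with a median of -0.98, and rapamycin lowered 7 and raised 3, with a median of -0.26. Of all genes tested, Torin-2 lowered 32.9% and raised 32.5%, and rapamycin lowered 26.2% and raised 24.6%. The 3 rises with rapamycin are thus near the background. Supply and chain synthesis came down with Torin-2 in 5 of 6 tested genes and with rapamycin in 3, with 1 that rose. Acss2 (ENSMUSG00000027605, chromosome 2 from 155517948 to 155585724, plus strand), which makes acetyl-CoA from acetate, had 10.7, 11.6 and 9.62 CPM in the Torin-2 libraries, 39.2, 39.4 and 39.6 CPM in the rapamycin libraries and 29.7, 26.4 and 36.3 CPM in the vehicle libraries. Torin-2 libraries were far below vehicle, at -1.53 (SE 0.12, edgeR adjusted p = 2.88e-07), and rapamycin libraries were above, at 0.35 (SE 0.11, edgeR adjusted p = 0.0158). The rapamycin rise was lost without vehicle replicate 1 or 2 (adjusted p = 0.0588 and 0.0591, range 0.00103 to 0.0591). Acss2 shares 395 exon bases with Gss, which changed by -1.31 with Torin-2 and -0.33 with rapamycin.

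Acaca, the carboxylase that commits acetyl-CoA to fatty acids, had 19.6, 18.5 and 20.2 CPM in the Torin-2 libraries, 41.3, 33.95 and 36.5 CPM in the rapamycin libraries and 44.4, 41.6 and 47.5 CPM in the vehicle libraries. It was lowest with Torin-2, at -1.19 (SE 0.086, edgeR adjusted p = 1.98e-07), and slightly below vehicle with rapamycin, at -0.26 (SE 0.083, edgeR adjusted p = 0.0212). That rapamycin call was lost without rapamycin replicate 2 or 3 or vehicle replicate 1 or 3 (adjusted p = 0.0551 to 0.0917), in the fit of rapamycin and vehicle alone (0.0535) and without replicate 3 of every group (0.118), over a range of 0.00289 to 0.118. In addition, 23.7% of Acaca windows are shared, mainly with Gm5182. Fatty acid synthase, Fasn, had 20.5, 22.3 and 17.5 CPM in the Torin-2 libraries, 16.7, 18.9 and 11.4 CPM in the rapamycin libraries and 40.5, 40.6 and 38.1 CPM in the vehicle libraries. Treated libraries lay below vehicle and the compounds overlapped, at -0.99 (SE 0.15, edgeR adjusted p = 8.39e-05) and -1.34 (SE 0.15, edgeR adjusted p = 2.15e-05), and Fasn, like Fads1, had its lowest mean with rapamycin. Acacb, the carboxylase isoform of the mitochondrial surface, had 2, 6 and 5 counts with Torin-2, 0, 0 and 2 counts with rapamycin and 7, 4 and 2 counts with vehicle and was not tested.

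The supply genes had smaller changes. Acly, the ATP citrate lyase, had 141, 140.1 and 135 CPM in the Torin-2 libraries, 180.3, 181 and 177 CPM in the rapamycin libraries and 193, 183 and 199 CPM in the vehicle libraries. Slc25a1, the mitochondrial citrate carrier, had 79.8, 91.8 and 76.97 CPM in the Torin-2 libraries, 99.96, 95.4 and 104 CPM in the rapamycin libraries and 125, 117 and 131 CPM in the vehicle libraries. Both were lowest with Torin-2 without overlap, Acly at -0.47 (SE 0.050, edgeR adjusted p = 5.66e-06) and Slc25a1 at -0.59 (SE 0.073, edgeR adjusted p = 1.83e-05). Rapamycin lowered Slc25a1, at -0.32 (SE 0.073, edgeR adjusted p = 0.002995), and Acly lay just below vehicle at -0.094 (SE 0.050, edgeR adjusted p = 0.141), which passed by library totals (0.00518, range 0.00518 to 0.436). Me1, the malic enzyme that supplies NADPH, had 22.6, 24.3 and 15.1 CPM in the Torin-2 libraries, 28.96, 32.8 and 23.96 CPM in the rapamycin libraries and 25.6, 28.1 and 20.7 CPM in the vehicle libraries. All groups overlapped, replicate 3 being lowest in each, and its changes of -0.27 (SE 0.18, edgeR adjusted p = 0.194) for Torin-2 and 0.20 (SE 0.17, edgeR adjusted p = 0.354) for rapamycin passed with the replicate block (adjusted p = 0.00611 over a range of 0.00611 to 0.661, and 0.0367 over a range of 0.0367 to 0.733), and for Torin-2 also with no filter (0.0332).

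With Torin-2, the largest falls of all tested members were in desaturation and elongation. Of 7 genes, Torin-2 lowered 5 and raised 1, and rapamycin lowered 4 and raised 2. The shares over all genes tested were 32.9% and 32.5% for Torin-2 and 26.2% and 24.6% for rapamycin. Elovl6 (ENSMUSG00000041220, chromosome 3 from 129532355 to 129638495, plus strand), which elongates palmitate to stearate, had 0.481, 0.691 and 0.3699 CPM in the Torin-2 libraries, 2.06, 1.85 and 1.604 CPM in the rapamycin libraries and 5.65, 7.81 and 7.32 CPM in the vehicle libraries. The groups were far apart, at -3.76 (SE 0.26, edgeR adjusted p = 1.32e-07) or 13.5-fold lower for Torin-2 and -1.92 (SE 0.22, edgeR adjusted p = 2.68e-05) or 3.77-fold lower for rapamycin. Elovl6 had only 9, 13 and 9 counts with Torin-2, against 132, 161 and 152 with vehicle. The size of its fall with Torin-2 is therefore measured less well. Scd2 (ENSMUSG00000025203, chromosome 19 from 44293674 to 44306864, plus strand), a stearoyl-CoA desaturase that makes oleate, had 15.6, 12.01 and 11.5 CPM in the Torin-2 libraries, 72.7, 59.9 and 68.1 CPM in the rapamycin libraries and 105, 72.8 and 113 CPM in the vehicle libraries. Torin-2 libraries stood well below all others, at -2.90 (SE 0.17, edgeR adjusted p = 3.25e-08) or 7.48-fold lower, and rapamycin libraries just below vehicle replicate 2, at -0.54 (SE 0.15, edgeR adjusted p = 0.00991).

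Its paralog Scd1 had 5.45, 3.35 and 4.89 CPM in the Torin-2 libraries, 12.5, 10.8 and 10.7 CPM in the rapamycin libraries and 6.98, 8.49 and 8.23 CPM in the vehicle libraries. Torin-2 libraries were below vehicle and rapamycin libraries above, without overlap, at -0.79 (SE 0.17, edgeR adjusted p = 0.00138) and 0.52 (SE 0.16, edgeR adjusted p = 0.0171). The rapamycin rise was lost without rapamycin replicate 1 or vehicle replicate 1 (adjusted p = 0.0673 and 0.0747, range 0.00283 to 0.0747), and without vehicle replicate 1 the fatty acid genes that rose with rapamycin came to 1, Acss2 being lost as well. Scd1 shares 2.58% and Scd2 0.879% of windows with other genes, mainly Scd3. Elovl1, an elongase of very long saturated chains, had 57.3, 62.3 and 53.5 CPM in the Torin-2 libraries, 76.1, 82.6 and 77.3 CPM in the rapamycin libraries and 108, 125 and 109 CPM in the vehicle libraries. The 3 groups did not overlap, at -0.98 (SE 0.076, edgeR adjusted p = 3.40e-07) and -0.54 (SE 0.075, edgeR adjusted p = 1.14e-04) for Torin-2 and rapamycin.

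The genes of the polyunsaturated branch differed among themselves. Elovl5, the elongase of polyunsaturated chains whose stretch with a pair of ATTGG boxes and a CACGTG box is printed above, had 125, 128 and 124 CPM in the Torin-2 libraries, 146, 141 and 161 CPM in the rapamycin libraries and 116, 109.9 and 104 CPM in the vehicle libraries. It was highest with rapamycin, intermediate with Torin-2 and lowest with vehicle, without overlap, at 0.19 (SE 0.062, edgeR adjusted p = 0.0203) and 0.44 (SE 0.062, edgeR adjusted p = 1.27e-04) over vehicle. The Torin-2 rise, the only one in the fatty acid arm, was lost without Torin-2 replicate 2 or vehicle replicate 3 (adjusted p = 0.0717 and 0.0818, range 0.008396 to 0.0818). Fads1, a desaturase of polyunsaturated chains, had 95.6, 88.5 and 88.6 CPM in the Torin-2 libraries, 83.9, 67.3 and 76.5 CPM in the rapamycin libraries and 96.5, 92.9 and 90.9 CPM in the vehicle libraries. Rapamycin libraries were lowest, at -0.30 (SE 0.075, edgeR adjusted p = 0.00561), and Torin-2 and vehicle overlapped, at -0.040 with a 95% interval of -0.20 to 0.12. Fads2, the desaturase that opens this branch, had 4, 4 and 3 counts with Torin-2, 15, 14 and 6 counts with rapamycin and 11, 15 and 6 counts with vehicle. At this depth its Torin-2 change of -1.44 (SE 0.57, edgeR adjusted p = 0.0439) was lost without any Torin-2 library, rapamycin replicate 2 or vehicle replicate 1 or 2 (adjusted p = 0.0573 to 0.171), by DESeq2 (0.0855) and with no filter (0.0562), over a range of 0.0231 to 0.171.

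**Figure D3:**
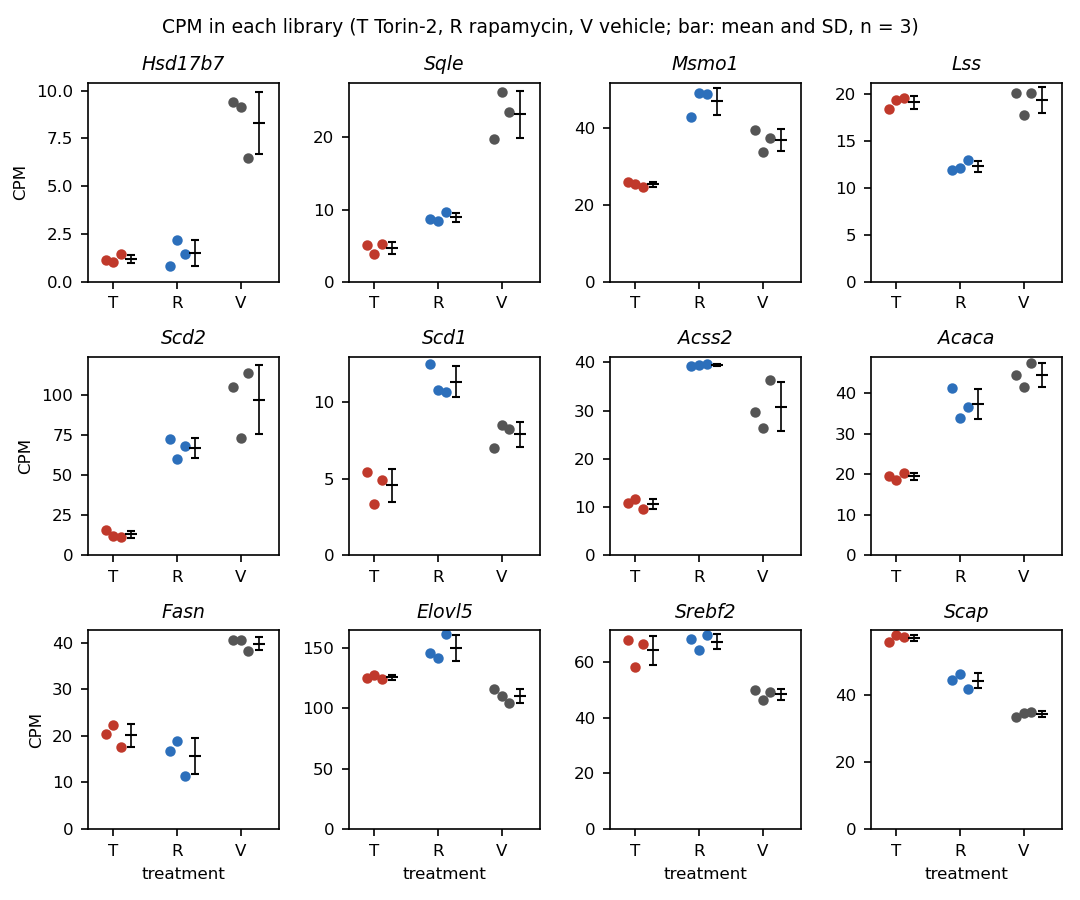
CPM in each library (points) for 12 genes, with mean and SD to the right of each group (n = 3), Torin-2, rapamycin and vehicle from left to right, on linear axes from 0. Scd2 and Acss2 are lowest in Torin-2 libraries, Hsd17b7, Sqle and Fasn are low with both compounds, and Srebf2 and Scap are higher with both.

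Set directly against rapamycin, Torin-2 left most fatty acid genes lower and the sterol genes mixed. Of 13 tested fatty acid genes, 11 were lower with Torin-2, 1 was higher and 1 did not pass, with a median of -0.47. Of 19 tested sterol genes, 7 were lower, 4 were higher and 8 did not pass, with a median of -0.14. Over all genes tested 24.1% were lower and 24.2% higher, with a median of -0.00067. For all 37 genes the libraries of the compounds did not overlap in 26, against 57.2% of all genes tested. Desaturation and elongation had a median of -1.30, and supply and synthesis had -0.42. Genes of an arm are not replicates, so the gap between the arms is given without a test.

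The same gap was seen library by library. The median log2 ratio to the vehicle mean over the fatty acid arm was -0.96, -0.87 and -1.09 in Torin-2 libraries, -0.11, -0.38 and -0.29 in rapamycin libraries and 0.0063, -0.0028 and 0.057 in vehicle libraries. Over the sterol arm it was -0.54, -0.53 and -0.47 in Torin-2 libraries, -0.48, -0.50 and -0.37 in rapamycin libraries and -0.035, 0.031 and -0.023 in vehicle libraries. By these medians, Torin-2 and rapamycin libraries were apart for the fatty acid arm and close together for the sterol arm. There, rapamycin replicates 1 and 2 lay within the Torin-2 range. A close median does not mean that single sterol genes were alike, as 7 of 19 were lower and 4 higher with Torin-2 than with rapamycin. The summed oligodendrocyte markers were also lower with Torin-2 than with rapamycin, 6 of 7 tested markers passing and 0 being higher. Macrophage markers were lower in 8 of 10 and higher in 1, astrocyte markers lower in 4 of 5 (median -1.09), neuron markers lower in 2 of 4 and fibroblast markers lower in 3 of 4 (median -3.32). Between the compounds, 24.1% of all genes tested were lower and 24.2% higher. The 6 astrocyte markers summed to 26.7 to 32.2 CPM in Torin-2 libraries, 36.4 to 62.2 CPM in rapamycin libraries and 44.6 to 58.5 CPM in vehicle libraries. The 7 neuron markers summed to 5.55 to 7.33 CPM in Torin-2 libraries, 9.87 to 12.2 CPM in rapamycin libraries and 6.94 to 11.3 CPM in vehicle libraries, Syt1 being at 0 with Torin-2. The 7 fibroblast markers summed to 3.04 to 9.25 CPM in Torin-2 libraries, 13.3 to 82.8 CPM in rapamycin libraries and 9.87 to 40.1 CPM in vehicle libraries, Lum being at 0 with rapamycin and vehicle. Torin-2 against vehicle gave 4 of 7 oligodendrocyte, 2 of 5 astrocyte and 3 of 4 fibroblast markers lower and none of these higher, the fibroblast median being -2.80. Macrophage markers were higher in 4 and lower in 3 of 10 against vehicle. Beside 32.9% lower and 32.5% higher of all genes tested, the astrocyte and macrophage counts are near the background. Rapamycin against vehicle raised 3 of 7 oligodendrocyte, 1 of 5 astrocyte and 6 of 10 macrophage markers and lowered 1, 0 and 3. The background there was 24.6% higher and 26.2% lower, and no neuron or fibroblast marker passed. The part of other cell types in the members' changes was not tested.

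**Figure D4:**
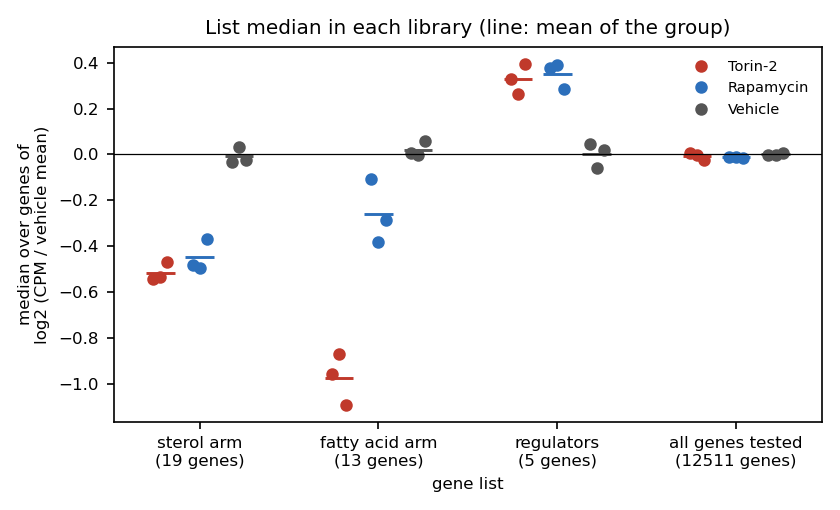
Median over genes of the log2 ratio to the vehicle mean in each library (points, with the group mean as a line) for each arm, the regulators and all 12511 genes tested. In the fatty acid arm the Torin-2 points lie between -1.09 and -0.87, below every rapamycin point, while in the sterol arm both compounds lie between -0.54 and -0.37.

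Among the fatty acid genes, Scd2 differed most between the compounds, at -2.37 (SE 0.17, edgeR adjusted p = 6.84e-07) or 5.15-fold lower with Torin-2. Acss2 was -1.89 (SE 0.12, edgeR adjusted p = 2.42e-07), Elovl6 was -1.84 (SE 0.28, edgeR adjusted p = 2.22e-04) and Scd1 was -1.30 (SE 0.17, edgeR adjusted p = 5.63e-05). These genes supply acetyl-CoA, elongate palmitate and desaturate stearate. Acaca differed by -0.93 (SE 0.087, edgeR adjusted p = 4.91e-06), Elovl1 by -0.45 (SE 0.076, edgeR adjusted p = 4.61e-04) and Acly by -0.37 (SE 0.050, edgeR adjusted p = 8.24e-05). Elovl5 was lower by less, at -0.25 (SE 0.062, edgeR adjusted p = 0.005401), and Fads1 was the only fatty acid gene higher with Torin-2, at 0.26 (SE 0.075, edgeR adjusted p = 0.0132), a call lost without Torin-2 replicate 1 or rapamycin replicate 2 (adjusted p = 0.0615 and 0.0547, range 0.00198 to 0.0615). Fasn, at 0.36 (SE 0.15, edgeR adjusted p = 0.0732), passed with the replicate block (0.00911), without Torin-2 replicate 3 (0.0484) without rapamycin replicate 2 (0.0173), by library totals (0.03795) and with no filter (0.00288), over a range of 0.00288 to 0.2295, and would then count as higher with Torin-2.

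Some fatty acid calls between the compounds were weaker. Slc25a1, at -0.27 (SE 0.073, edgeR adjusted p = 0.01003), was lost without Torin-2 replicate 3 (0.0504) and without replicate 3 of every group (0.0695, range 0.00241 to 0.0695). Me1, at -0.47 (SE 0.18, edgeR adjusted p = 0.0424), was lost without Torin-2 replicate 1 or 3, rapamycin replicate 1 or 2 or vehicle replicate 1 (0.0546 to 0.154) and by library totals (0.0852, range 5.03e-05 to 0.154). Fads2, at -1.78 (SE 0.56, edgeR adjusted p = 0.0215), was lost without Torin-2 replicate 3 or rapamycin replicate 1 or 2 (0.0559 to 0.0881, range 0.00709 to 0.0881). Apart from Slc25a1, Me1 and Fads2, 8 fatty acid genes were lower with Torin-2.

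In the sterol arm the compounds differed in both directions. Lower with Torin-2 were Tm7sf2 at -1.04 (SE 0.17, edgeR adjusted p = 3.89e-04), Sqle at -0.91 (SE 0.15, edgeR adjusted p = 3.84e-04), Msmo1 at -0.89 (SE 0.080, edgeR adjusted p = 3.70e-06), Acat2 at -0.88 (SE 0.24, edgeR adjusted p = 0.0101) and Dhcr7 at -0.42 (SE 0.087, edgeR adjusted p = 0.00193). Higher with Torin-2 were Lbr at 1.23 (SE 0.21, edgeR adjusted p = 4.05e-04), Lss at 0.63 (SE 0.086, edgeR adjusted p = 8.71e-05), Mvk at 0.45 (SE 0.13, edgeR adjusted p = 0.0117) and Fdft1 at 0.34 (SE 0.089, edgeR adjusted p = 0.00753). The Mvk call was lost without Torin-2 replicate 3 (0.05702, range 0.00494 to 0.05702). Mvd, at -0.40 (SE 0.14, edgeR adjusted p = 0.0301), was lost without Torin-2 replicate 2 or any rapamycin library (0.0504 to 0.0951) and by library totals (0.0654, range 0.0101 to 0.0951). Nsdhl, at -0.31 (SE 0.10, edgeR adjusted p = 0.0278), was lost without replicate 2 or 3 of either compound (0.0547 to 0.109), without replicate 3 of every group (0.217), by library totals (0.08401) and with no filter (0.0688, range 0.01401 to 0.217).

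The sterol genes that fell with both compounds and did not pass between them were Hsd17b7, Idi1, Hmgcs1, Cyp51 and Ebp. The 95% interval of their difference was -1.05 to 0.37 for Hsd17b7, -0.97 to 0.11 for Idi1 and -0.073 to 0.30 for Hmgcs1. It was -0.32 to 0.046 for Cyp51 and -0.27 to 0.027 for Ebp. Hmgcs1 passed without rapamycin replicate 3 (0.0388, range 0.0388 to 0.687). Pmvk, at 0.39 (SE 0.16, edgeR adjusted p = 0.0627), passed with the replicate block (0.02997), without rapamycin replicate 1 (0.0145), by library totals (0.0338) and with no filter (0.0366), over a range of 0.0145 to 0.303. Among regulators only Scap passed, at 0.37 (SE 0.059, edgeR adjusted p = 3.03e-04). The 95% interval of the difference between the compounds was -0.16 to 0.072 for Srebf1 and -0.22 to 0.081 for Srebf2.

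**Figure D5:**
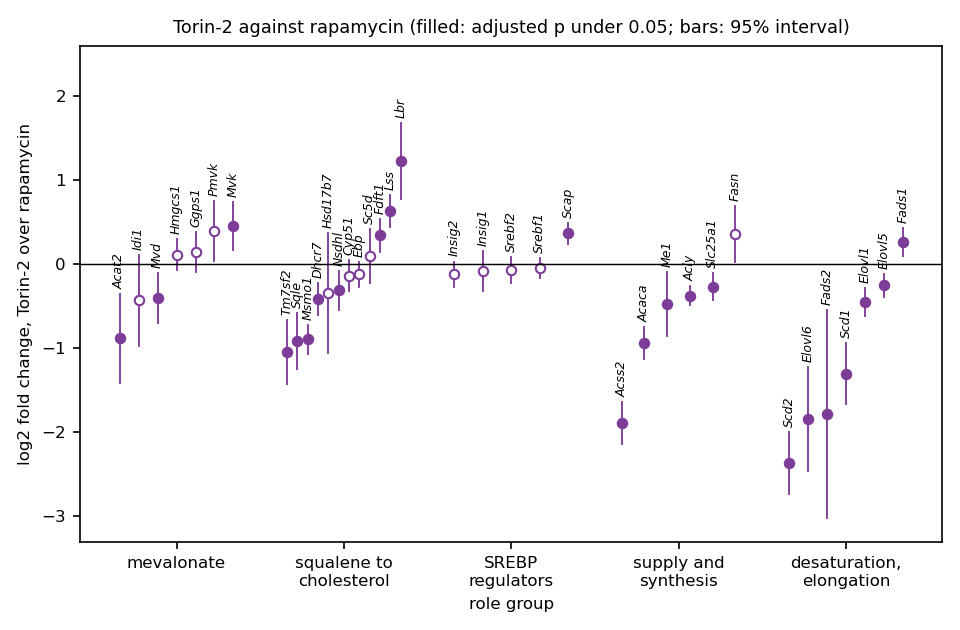
Log2 fold change of Torin-2 over rapamycin with its 95% interval for each tested gene by role group, filled where the edgeR adjusted p is under 0.05. The points of both fatty acid groups lie mostly below 0, down to -2.37 for Scd2, while the sterol groups spread from -1.04 for Tm7sf2 to 1.23 for Lbr.

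Per kilobase of exon, on a CPM scale that allows a rough comparison of genes, the most abundant members in each group were Slc25a1, Acly, Elovl1 and Elovl5. The length takes in the exon bases of all annotated transcripts of a gene, whether or not they are in use, so the order between genes is approximate. Slc25a1 stood at 38.3 CPM per kb with Torin-2, 46.05 with rapamycin and 57.6 with vehicle. Acly stood at 26.2 CPM per kb with Torin-2, 33.996 with rapamycin and 36.3 with vehicle. Elovl1 stood at 21.2 CPM per kb with Torin-2, 28.9 with rapamycin and 41.9 with vehicle. Elovl5 stood at 35.6, 42.4 and 31.3 CPM per kb in the same order, so the elongase of polyunsaturated chains lay below Elovl1 in vehicle libraries and above it in Torin-2 libraries. Of the desaturases, Scd2 had 2.38 CPM per kb with Torin-2, 12.2 with rapamycin and 17.7 with vehicle. Scd1 had 0.933 CPM per kb with Torin-2, 2.31 with rapamycin and 1.62 with vehicle, so Scd2 was the more abundant paralog in every group. Of the paired sterol reductases, Tm7sf2 averaged 0.594 CPM per kb and Lbr 4.01 in Torin-2 libraries, against 2.001 and 1.83 in vehicle libraries, where their order differed between libraries. The Tm7sf2 level includes any reads of the exon bases shared with Vps51. Hsd17b7, at 0.233 CPM per kb with Torin-2, 0.292 with rapamycin and 1.63 with vehicle, was among the scarcest sterol enzymes.

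Of 13 tested genes for the transport, cleavage and turnover of the SREBPs, 4 rose and 4 fell with Torin-2, which is close to the background of 32.5% and 32.9%. With rapamycin 5 rose and 3 fell, beside 24.6% and 26.2% of all genes tested. Mbtps2, one of the proteases that release SREBP, had 118, 117 and 109 CPM in the Torin-2 libraries, 85.3, 85.8 and 93.1 CPM in the rapamycin libraries and 69.2, 65.9 and 63.6 CPM in the vehicle libraries. On the log2 scale it rose with both, by 0.79 and 0.41, and the other protease, Mbtps1, rose by 0.36 and 0.40 with Torin-2 and rapamycin. Sec24d, a coat protein of vesicles leaving the endoplasmic reticulum, had 100.2, 110.2 and 102 CPM in the Torin-2 libraries, 187, 202 and 203 CPM in the rapamycin libraries and 222, 229.6 and 232 CPM in the vehicle libraries. On the log2 scale it fell by 1.13 with Torin-2 and by 0.21 with rapamycin, and the difference between the compounds was -0.92 (SE 0.057, edgeR adjusted p = 2.47e-07). Lpin1, a phosphatidate phosphatase that restrains SREBP when it enters the nucleus, which mTORC1 prevents, had 28.2, 23.3 and 23.1 CPM in the Torin-2 libraries, 27.998, 21.02 and 26.1 CPM in the rapamycin libraries and 12.6, 9.66 and 12.7 CPM in the vehicle libraries. It was higher in all treated libraries, at 1.09 (SE 0.14, edgeR adjusted p = 2.18e-05) for Torin-2 and 1.10 (SE 0.14, edgeR adjusted p = 5.18e-05) for rapamycin.

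Most tested genes of the isoprenoid branch and of a further fatty acid list fell, beside 32.9% of all genes with Torin-2 and 26.2% with rapamycin. Of 10 isoprenoid branch genes, 7 fell and 2 rose with Torin-2, and 6 fell and 1 rose with rapamycin. Pdss1, which builds the ubiquinone side chain, had log2 fold changes of -2.07 with Torin-2 and -1.50 with rapamycin, whereas Rabggtb, a subunit of the enzyme that prenylates Rab proteins, rose by 2.16 and 0.66 on that scale. Of 15 tested further fatty acid genes, 10 fell and 2 rose with Torin-2, and 11 fell and 1 rose with rapamycin. Some partners of the elongation cycle were among them: Hsd17b12, the keto-acyl reductase, fell by 1.19 and 0.49, Hacd2, a dehydratase, by 0.82 and 0.75, and Tecr, the enoyl reductase, by 0.76 and 0.22. Hacd3 fell by 0.84 and 0.37. With Torin-2, Hacd1 at -0.17 and Hacd4 at 0.070 did not pass (edgeR adjusted p = 0.590 and 0.406), while with rapamycin they fell by 0.92 and 0.22. Hacd4 was the most abundant Hacd gene, averaging 203 CPM with Torin-2 and 194 CPM with vehicle, against 20.4 and 35.9 CPM for Hacd2. The elongase Elovl7 fell by 2.72 and 2.43 with Torin-2 and rapamycin.

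Of 7 further SREBP target genes, 3 fell and 1 rose with Torin-2, beside 32.9% and 32.5% of all genes tested, and 3 fell and 0 rose with rapamycin, beside 26.2% and 24.6%. Tmem97, a sterol-regulated membrane protein, fell by 1.00 on the log2 scale with Torin-2 and 0.82 with rapamycin. Stard4, a cytosolic sterol carrier, had 9.305, 7.599 and 6.699 CPM in the Torin-2 libraries, 5.99, 5.78 and 5.01 CPM in the rapamycin libraries and 11.5, 12.6 and 9.195 CPM in the vehicle libraries. Rapamycin libraries were lowest, at -0.99 (SE 0.16, edgeR adjusted p = 2.99e-04), and Torin-2 gave -0.50 (SE 0.15, edgeR adjusted p = 0.0123). Rdh11 was the gene that rose with Torin-2, at 0.25 (SE 0.063, edgeR adjusted p = 0.0041), and Mmab, Pcyt2 and Gpam did not pass with it. Of 5 tested genes of the sterol-sensing nuclear receptors LXR and their targets, 2 rose and 2 fell with Torin-2, and 4 rose and 0 fell with rapamycin. Against these shares, 2 of 5 in each direction with Torin-2 is near the background, and 5 genes are few. The receptor Nr1h3 was lower with Torin-2 at -0.36 and higher with rapamycin at 0.24, a difference between the compounds of -0.60 (SE 0.071, edgeR adjusted p = 3.10e-05). The sterol exporter Abcg1 had 679, 696 and 696 CPM in the Torin-2 libraries, 899, 891 and 881 CPM in the rapamycin libraries and 771, 689.9 and 752 CPM in the vehicle libraries. Rapamycin libraries were highest, at 0.27 (SE 0.055, edgeR adjusted p = 0.00142) over vehicle and -0.37 (SE 0.055, edgeR adjusted p = 1.71e-04) for Torin-2 over rapamycin. Other genes of this list had other patterns. Abca1 averaged 811 CPM with Torin-2, 1106 CPM with rapamycin and 1134 CPM with vehicle, at -0.48 for Torin-2 over vehicle. Mylip averaged 219, 220 and 158 CPM in the same order.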

How the data were processed

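The authors deposited a table of raw gene counts with 53342 genes and 9 libraries, 3 per treatment. Sequencing gave 100 bp paired reads from NuGEN mRNA libraries, per the labels' protocols. Per the submitters' processing notes, reads passed through bcl2fastq, FastQC and STAR 2.5.2a, and the builds named are GRCm38.p6 and mm10. How reads were counted (tool, strand setting, annotation) is not given in the sources used here, so reads of overlapping genes and near-identical copies cannot be told apart.

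The analysis used edgeR 4.0.16 in R 4.3.3. Genes were kept by filterByExpr (12511), scaled by TMM (factors 0.955 to 1.05) and tested in 1 quasi-likelihood fit of all 9 libraries, 2-sided, with Benjamini-Hochberg adjustment over all genes tested and a threshold of 0.05. Biological variation between replicates came to 9.96% (common coefficient), and genes at a few counts per library are measured least well. Alternatives were DESeq2 1.42.0, RLE factors, library totals, no filter, a fit of the 2 groups compared, a replicate block and leaving out each library. Leaving out replicate 3 of every group was chosen after seeing the data. Scripts were tested on simulated data. Bones of different animals were kept apart, per the labels' protocols. Libraries with the same replicate number deviated together (r of 0.19 to 0.513 in 9 of 9 pairs, against -0.387 to 0.157 for different numbers), so blocked values are given where they change a call.

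Members were matched by symbol and identifier to GENCODE M21 (GRCm38), promoter windows to RefSeq GRCm38.p6. The members, the role groups and the other lists were chosen with earlier results of these data known. By the naming rule, every member is named or counted, members that pass and reach 1 CPM are given in every library, and other genes come from the context lists. Some related genes are not analysed here.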

Additional observations from a re-analysis of the deposited data

How the results depend on the processing

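Each of the tested member values was recomputed in up to 16 settings, 1774 values in all. Direction and side of the threshold were kept by 1666 values, 70 lost a call, 25 gained one and 13 changed sign, none of the 13 passing the threshold in the main analysis. Scaled by library totals, the rapamycin change of Ggps1 was -0.039 and the Torin-2 over rapamycin changes of Srebf1 and Srebf2 were 0.029 and 0.0052. Leaving out 1 library at a time, values ran from -0.079 to 0.0098 for Lss under Torin-2, and under rapamycin from -0.041 to 0.12 for Ggps1, -0.28 to 0.18 for Lbr and -0.030 to 0.71 for Fads2. For Torin-2 over rapamycin they ran from -0.60 to 0.039 for Hsd17b7, -0.033 to 0.25 for Sc5d and -0.18 to 0.039 for Insig1. The cause was not tested.

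Counts moved by small numbers. For rapamycin, sterol genes that rose came to 1 by library totals and without replicate 3 of every group, and regulators that fell came to 2 in both of these settings and to 0 with no filter and in the fit of 2 groups. For Torin-2 over rapamycin, fatty acid genes that were higher came to 2 by library totals, with no filter and with the replicate block. By library totals the sterol arm's median was -0.53 for rapamycin and -0.064 for Torin-2 over rapamycin. With 1 library left out, Torin-2 gave 0 to 1 fatty acid genes that rose and 1 to 2 regulators that fell. Rapamycin gave 1 to 2 sterol and 1 to 3 fatty acid genes that rose and 0 to 2 regulators that fell, and Torin-2 over rapamycin gave 0 to 2 fatty acid genes that were higher. The block changed 7 calls, each given beside its gene, and no other call. Counts of 0 to 15 limit Fdps, Acacb and Fads2. Elovl6, at 9, 13 and 9 counts in Torin-2 libraries, and Hsd17b7, at 13 counts in rapamycin replicate 1, are limited in those libraries too.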
